A study of Bos taurus with 9 samples.

Results

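A group of 14642 short chromatin regions of the bovine rumen was examined. Each had a called peak of acetylated lysine 27 of histone H3 (H3K27ac) before and after butyrate. None had a called peak of acetylated lysine 9 of histone H3 (H3K9ac) in either condition. They are called narrow steady regions here. The peaks of the 4 acetylation lists (H3K9ac and H3K27ac, control and butyrate) on chromosomes 1 to 29 were merged wherever they shared at least 1 bp, and the narrow steady regions were selected on those lists: a peak in both H3K27ac lists, no peak in either H3K9ac list, and a merged width under 800 bp. They made up 31.2% of the 46982 merged regions (95% Wilson interval 30.75 to 31.6%) and 69.3% of the 21132 regions with H3K27ac in both conditions. Steady means only that a peak was called in both lists, since the lists hold positions and no signal height.

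The data are chromatin immunoprecipitation sequencing of rumen tissue from cattle of the Holstein breed (spelled Hostein in the labels), untreated in the control group and after 24 h of butyrate in the other group, with butyrate infusion and rumen biopsies named in the methods of the study. Each group consisted of 1 library per antibody (H3K9ac, H3K27ac, H3K9me3 and RNA polymerase II), and differences between conditions were not checked by replicates. The number, age and sex of the animals and the dose of butyrate in the tissue experiment were not given in the sources used here. For both acetylations lane 1 carried the control and lane 3 the butyrate library, for H3K9me3 lane 3 carried the control and lane 4 the butyrate library, and RNA polymerase II (RNA pol II) had both libraries on lane 3, so that lane and condition cannot be told apart except for RNA pol II. All lists were called against the same input library. In a bulk tissue, fewer cells that carry a mark and less of the mark per cell cannot be told apart. No gene annotation or sequence of the genome build of the lists was used, so the tissue could not be checked against marker genes, and the regions are named by position in UMD3.1.1 and not by gene.

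H3K27ac is found at active enhancers and promoters, and H3K9ac mainly at active promoters, where it often accompanies RNA pol II, the enzyme that transcribes protein-coding genes. H3K9me3, trimethylated lysine 9 of histone H3, is typical of silenced heterochromatin. Butyrate, a short-chain fatty acid produced by microbial fermentation in the rumen, inhibits histone deacetylases, the enzymes that take acetyl groups off histones. The paper links both acetylations to promoters and enhancers, so the lack of an H3K9ac peak does not make a region an enhancer. Without gene positions the regions could not be divided into promoters and distal elements here.

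Other kinds of region were used for comparison. The wide steady regions were the 1374 regions of 800 bp or more with the same marks. The single-condition regions were the 24260 regions under 800 bp without H3K9ac whose H3K27ac was called in only 1 condition (14243 in control, 10017 after butyrate). The H3K9ac-bearing regions were the 3742 regions under 800 bp with H3K27ac in both conditions and H3K9ac in at least 1. Of the 18384 regions under 800 bp with H3K27ac in both conditions, 79.65% were narrow steady regions, and of the 16016 regions with steady H3K27ac and no H3K9ac, 91.4% fell under the width limit. The H3K9ac lists held only 4075 control and 4255 butyrate peaks on chromosomes 1 to 29. With so few H3K9ac peaks, most H3K27ac regions had to lack one. The part of list size and calling sensitivity in the share of 79.65% was not tested. The narrow steady regions held 40.4% of the 36963 control and 45.7% of the 32763 butyrate H3K27ac peaks of these chromosomes, and 39.4% and 42.7% of the base pairs under those peaks.

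The H3K27ac peaks inside these regions were short and had nearly the same width in both conditions. The median merged width was 408 bp (quartiles 313 and 534 bp). Within it the control peaks had a median of 324 bp (249 to 445 bp) and the butyrate peaks a median of 316 bp (244 to 436 bp). The log2 ratio of the butyrate width to the control width had a median of -0.01 (quartiles -0.33 and 0.26) and ranged from -1.98 to 1.97. These values, and those that follow up to the first paragraph on RNA pol II, come from the lists that chose the regions. They are given as a description with no test. For scale, the median merged width was 938 bp for the wide steady regions, 513 bp for the H3K9ac-bearing regions, and 242 bp (control) and 247 bp (butyrate) for the single-condition regions.

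Most regions were a simple pair of peaks. A single control peak faced a single butyrate peak in 14038 regions (95.9%), whereas 1 control peak was split into 2 butyrate peaks in 319, 2 control peaks joined 1 butyrate peak in 276, and 2 peaks of each list were chained in 9. By merged width, 3122 regions (21.3%) measured 200 to 299 bp, 3906 (26.7%) 300 to 399 bp, 5284 (36.1%) 400 to 599 bp and 2330 (15.9%) 600 to 799 bp.

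**Figure D1:**
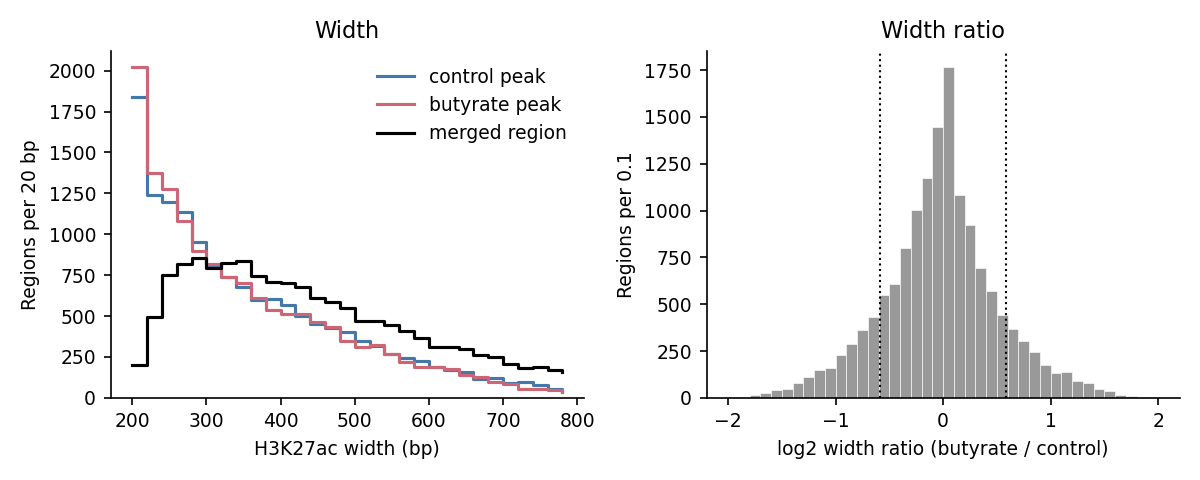
Left, number of narrow steady regions per 20 bp of H3K27ac width for the control peaks (blue), the butyrate peaks (red) and the merged regions (black); right, number of regions per 0.1 of the log2 ratio of butyrate to control width, with dotted lines at a 1.5-fold change. Both peak distributions start at the minimum of 200 bp with medians of 324 and 316 bp, and the ratios centre on a median of -0.01.

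After butyrate 6732 regions (46.0%) were wider, 7519 (51.35%) were narrower and 391 had the same width. A width at least 1.5-fold larger after butyrate was found in 1716 regions (11.7%), against 11.2% of all regions with H3K27ac in both conditions. A width at least 1.5-fold smaller was found in 2024 (13.8%), against 13.2% of those regions. Both shares were close to those of the regions as a whole, but narrow steady regions made up 69.3% of that whole, so closeness is partly built in. The shares were 13.1% and 17.6% in the wide steady regions and 10.1% and 10.85% in the H3K9ac-bearing regions. The largest rises were at chr11:74849807-74850591, from 200 bp in control to 785 bp after butyrate, and at chr15:14155170-14155931, from 200 to 762 bp. The largest falls were at chr7:1345196-1345987, from 786 to 200 bp, and at chr17:60825966-60826743, from 778 to 201 bp. In each of these 4 regions the shorter peak was at or within 1 bp of the minimum width, and none carried RNA pol II or H3K9me3. Exactly 611 regions had only the control peak at the minimum width and 611 only the butyrate peak, and 67 had both there.

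The control and butyrate peaks overlapped over most of their length in the typical region, and less in wider ones. Where 1 peak faced 1 peak, the bases shared by both made up a median of 71.2% of the merged region (quartiles 53.4 and 85.5%). This share was 84.7% in regions of 200 to 299 bp, 69.7% at 300 to 399 bp, 61.9% at 400 to 599 bp and 58.7% at 600 to 799 bp. The centre of the butyrate peaks was displaced from that of the control peaks by a median of 42.5 bp in either direction (16 to 90.5 bp), and by 100 bp or less in 11463 regions (78.3%). The signed displacement had a median of 0 bp (quartiles -43 and 41.5 bp). The butyrate span lay inside the control span in 4180 regions (28.55%) and the control span inside the butyrate span in 3520 (24.0%), while 3302 were shifted at both edges to higher and 3352 to lower positions.

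The extremes of this overlap show how different regions under the same rule can be. At chr16:81366494-81367266 the control and the butyrate peak were the same 773 bp, and at chr1:80180767-80181521 they were the same 755 bp. At chr20:41497390-41498038 a control peak of 299 bp and a butyrate peak of 351 bp shared a single base, and the same held at chr4:119389985-119390615 for peaks of 220 and 412 bp. Such regions met the rule although the conditions marked neighbouring stretches of DNA. Beside the width limit, chr9:73541074-73541872 (707 bp in control, 799 bp after butyrate) and chr11:99792408-99793206 (509 and 679 bp) were among the 3 regions of 799 bp that were kept. Just outside it, chr8:100551963-100552762 (737 and 555 bp) and chr16:51589580-51590379 (708 and 718 bp) were among the 3 regions of 800 bp that were not.

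Peak edges coincided to the base far more often than they fell 1 bp apart. The control and the butyrate peak started at the same base in 1752 regions (12.0%), whereas the butyrate start was 1 bp before the control start in 97 and 1 bp after it in 87. The end was shared in 1770 regions (12.1%), with 90 and 67 at 1 bp before and after. At least 1 edge was shared in 3234 regions (22.1%) and both edges in 288. Shared edges were also seen in 16.0% of the wide steady regions and 25.2% of the H3K9ac-bearing regions. The gap to the nearest other H3K27ac region showed a like feature. It was exactly 200 bp in 575 narrow steady regions (3.93%), against 34 at 199 bp and 29 at 201 bp.

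**Figure D2:**
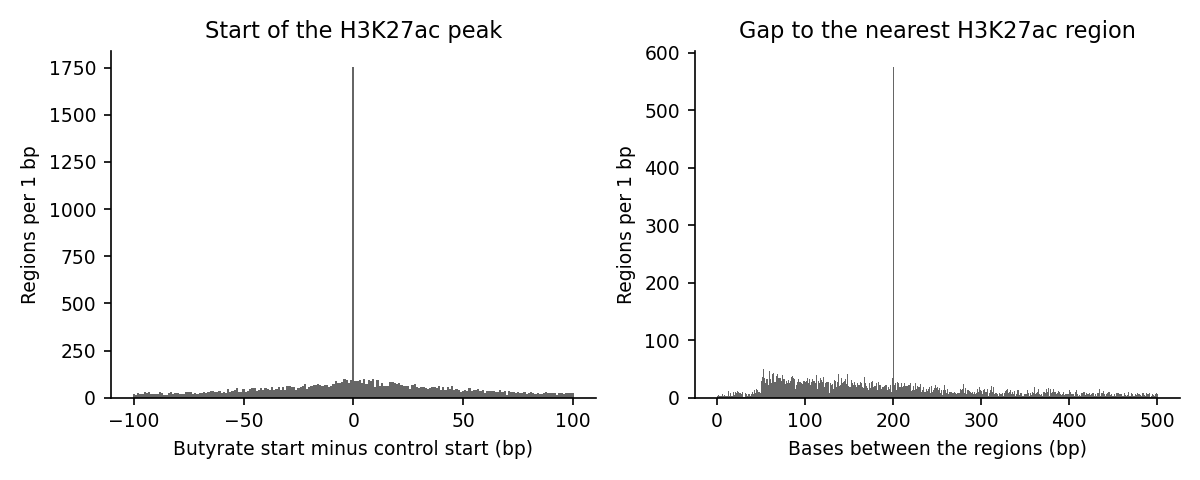
Left, number of narrow steady regions at each distance between the start of the butyrate and of the control H3K27ac peak, per 1 bp; right, number at each gap to the nearest other H3K27ac region, per 1 bp. A spike of 1752 regions stands at a start difference of 0 bp and a spike of 575 regions at a gap of 200 bp, each far above the neighbouring base pairs.

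Gaps of exactly 200 bp were not particular to these regions. They also stood beside 64 wide steady regions (4.66%), 152 H3K9ac-bearing regions (4.06%) and 536 single-condition regions (2.21%), and 151 of them lay between 2 narrow steady regions. Within the control H3K27ac list 528 pairs of neighbouring peaks were 200 bp apart, against 23 at 199 bp and 23 at 201 bp. The butyrate list held 548, against 22 and 24. Of these, 97 lay between the same 2 edges in both lists, which is 18.4% of the control and 17.7% of the butyrate gaps. The part of the shared input library in these edges was not tested.

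RNA pol II was rare at the narrow steady regions, but it was called more often than at the single-condition regions and less often than at the H3K9ac-bearing regions. A control RNA pol II peak overlapped 78 regions (0.533%), against 0.602% of all merged regions, and a butyrate peak overlapped 132 (0.90%), against 1.03% of all. Intervals on these shares cover counting error only, and the regions of a library are not replicates. In control 0.177% of the single-condition regions carried RNA pol II, a difference of 0.36 percentage points (95% Newcombe interval 0.23 to 0.49), and after butyrate 0.309% did, a difference of 0.59 points (0.43 to 0.77). Narrow steady regions had the higher share on 18 of 29 chromosomes in control and on 23 after butyrate. In this and the later comparisons the single-condition regions are 1 pool of both kinds. Of its 24260 regions, 10017 had no H3K27ac peak in control and 14243 had none after butyrate, while every narrow steady region had one. Shares for the control-only and butyrate-only regions were not taken, so the part of a missing H3K27ac peak was not tested.

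The H3K9ac-bearing regions, of the same width limit, carried RNA pol II at 1.95% in control and 3.34% after butyrate. The share of the narrow steady regions was lower by these differences, -1.42 points (-1.92 to -1.0) and -2.44 points (-3.08 to -1.88), and lower on 24 and 27 of 29 chromosomes. Against the wide steady regions, with 1.24% in control and 1.97% after butyrate, the differences were -0.70 points (-1.45 to -0.22) and -1.06 points (-1.95 to -0.43). The share of the narrow steady regions was lower on 13 and higher on 9 of 29 chromosomes in control, and lower on 14 and higher on 12 after butyrate. Overlap was counted at 1 bp, and the median merged width was 938 bp for the wide against 408 bp for the narrow steady regions. The part of region width in these differences was not tested. The comparison with the wide regions was the less firm. Without the peaks of 200 bp the control difference was -0.33 points with an interval that reached 0, and with a width limit of 1000 bp the butyrate difference of -0.83 points had an interval that included 0. All 6 differences in RNA pol II excluded 0 also at the level of 99.71% that allows for 17 differences, of which 5 concern spacing and are not tested here.

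**Figure D3:**
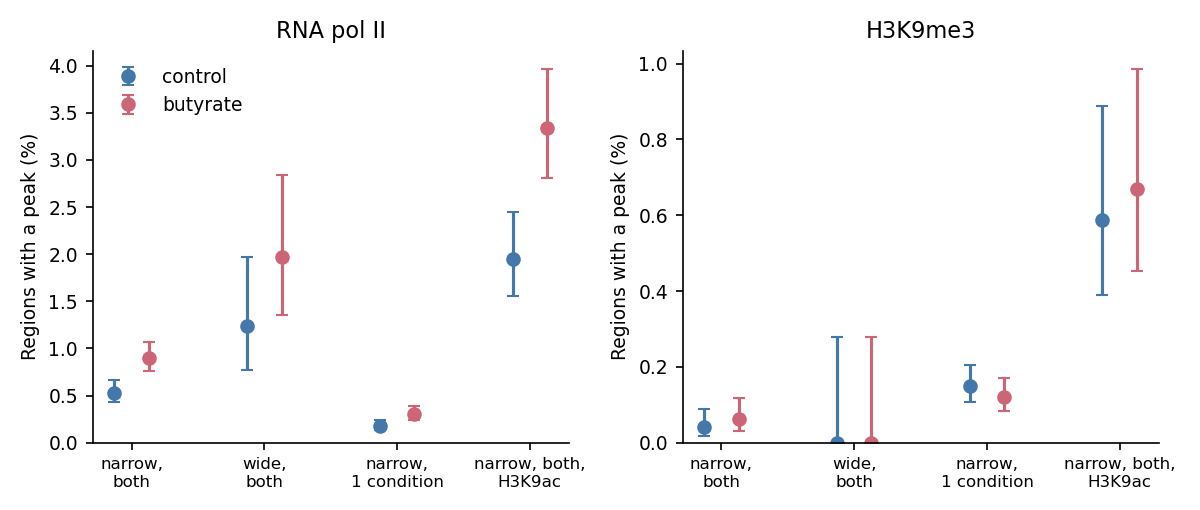
Percent of regions with an RNA pol II peak (left) and an H3K9me3 peak (right) in control (blue) and after butyrate (red), for narrow steady, wide steady, single-condition and H3K9ac-bearing regions; points are shares and bars 95% Wilson intervals, which cover counting error only. The narrow steady regions lie at 0.533 and 0.90% for RNA pol II, between the single-condition and the other regions, and at 0.0410 and 0.0615% for H3K9me3.

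The share with RNA pol II rose with the width of the region. Overlap was counted at 1 bp, so a wider region was also a larger target, and shares per base were not compared. From the narrowest to the widest class it was 0.320%, 0.435%, 0.625% and 0.773% in control, and 0.352%, 0.742%, 1.15% and 1.33% after butyrate. Since the single-condition regions were narrower, the comparison was repeated within width classes. At 200 to 299 bp, where most of them lay, the difference was 0.14 points (-0.03 to 0.41) in control and 0.10 points (-0.08 to 0.38) after butyrate, so that no difference was detectable there. At 300 to 399 bp it was 0.27 points (0.03 to 0.54) and 0.29 points (-0.05 to 0.65). At 400 to 599 bp it was 0.46 points (0.10 to 0.73) and 0.61 points (0.09 to 1.02). At 600 to 799 bp there were 211 single-condition regions, none with RNA pol II, and both intervals included 0. The H3K9ac-bearing regions had the higher share in each of the 4 width classes and both conditions, with every interval below 0, as at 600 to 799 bp with -1.35 points (-2.37 to -0.55) in control and -3.25 points (-4.63 to -2.08) after butyrate.

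**Figure D4:**
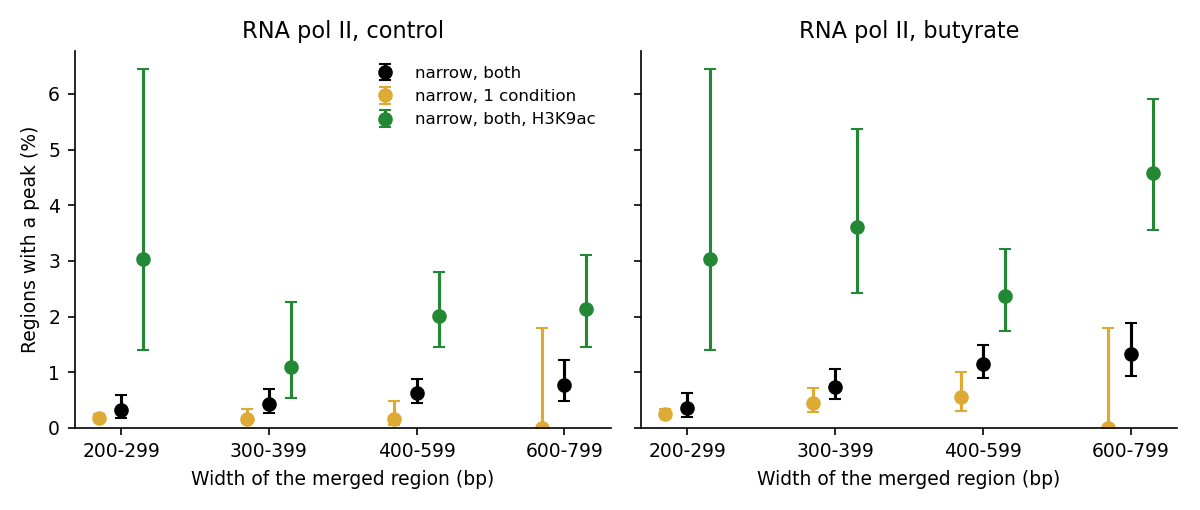
Percent of regions with an RNA pol II peak by class of merged width in bp, in control (left) and after butyrate (right), for narrow steady (black), single-condition (yellow) and H3K9ac-bearing regions (green); bars are 95% Wilson intervals. The narrow steady regions go from 0.320 to 0.773% in control and from 0.352 to 1.33% after butyrate, and lie under the H3K9ac-bearing regions in each class.

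More narrow steady regions carried RNA pol II after butyrate than in control, in the same proportion as elsewhere. The ratio of the counts was 1.69 for these regions and 1.72 for all other merged regions. The 2 lists met on some of the same regions. RNA pol II was called in both conditions at 18 regions, in control only at 60 and after butyrate only at 114, which makes 192 regions (1.31%) with RNA pol II in either. The 18 were 23.1% of the regions with it in control (95% interval 15.1 to 33.6%) and 13.6% of those with it after butyrate (8.80 to 20.5%). The like shares over all merged regions were not taken, so whether these are low or high was not tested. In turn 77 of the 673 control RNA pol II peaks (11.4%) and 131 of the 1242 butyrate peaks (10.55%) of these chromosomes lay on a narrow steady region.

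The RNA pol II peaks were shorter than the acetylated regions and lay mostly within them. Their median width was 226 bp in control and 208.5 bp after butyrate, near the minimum width of 200 bp in both RNA pol II lists. In 47 of the 78 pairs of a region and a control peak the peak lay wholly inside the region, and in 88 of the 132 pairs with a butyrate peak, with the centres a median of 66.25 and 81 bp apart. The 192 regions with RNA pol II in either condition had a median merged width of 453.5 bp, against 407 bp for the 14450 without. Of the 192 regions, 41.1% lay within 10 kb of an H3K9ac peak, against 34.1%, a difference of 7.06 points. For a neighbouring H3K27ac region within 12500 bp the difference was 0.83 points. The lists that chose the regions set both gaps, so these differences are a description with no test. These values and those by width class were not among the 17 differences. H3K27ac width was also given by RNA pol II class, as a description. It was larger after butyrate in 69 of the 114 regions with RNA pol II after butyrate only (60.5%), in 31 of the 60 with it in control only (51.7%) and in 10 of the 18 with it in both, against 46.0% of all narrow steady regions. The median log2 width ratios were 0.14, 0.04 and 0.09.

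The 18 regions with RNA pol II in both conditions lay on 13 chromosomes, with merged widths from 226 to 776 bp. The 5 with the most bases under RNA pol II are given singly. At chr19:23961227-23961575 the H3K27ac peaks measured 311 bp in control and 349 bp after butyrate, and RNA pol II covered all 349 bp in both conditions. At chr6:6298147-6298650 H3K27ac went from 405 to 504 bp, with 338 and 346 bp under RNA pol II. At chr16:7289450-7289892 H3K27ac measured 200 bp in control and 443 bp after butyrate, a log2 width ratio of 1.15, while RNA pol II covered nearly the same length, 342 and 339 bp. In these 3 regions the H3K27ac peak was wider after butyrate. At chr1:81063527-81064302 H3K27ac was narrower after butyrate, 541 bp against 776 bp, and RNA pol II covered more, 467 bp against 203 bp. At chr10:80969967-80970574 the H3K27ac peak was the same 608 bp in both conditions, RNA pol II covered 312 and 336 bp, and an H3K9ac peak lay 446 bp away. Of these 5 regions 3 also carried H3K9me3 after butyrate, over 150, 504 and 302 bp on chromosomes 19, 6 and 16, and only that on chromosome 6 carried it in control.

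H3K9me3 was seldom called at the narrow steady regions. It overlapped 6 regions in control (0.0410%), against 0.215% of all merged regions, and 9 after butyrate (0.0615%), against 0.221%, which makes 12 in either condition and 3 in both. The H3K9ac-bearing regions carried it more often, at 22 (0.588%) and 25 regions (0.668%), with differences of -0.55 points (-0.85 to -0.34) and -0.61 points (-0.92 to -0.38). The single-condition regions carried it at 36 (0.148%) and 29 (0.120%). That difference was -0.11 points in control (-0.17 to -0.04), and counting peaks within 1 kb gave -0.08 points with an interval that included 0. After butyrate it was -0.06 points (-0.12 to 0.01), which is not a detectable difference. Within each of the 4 width classes the interval of the difference from the single-condition regions included 0 in both conditions, as at 200 to 299 bp in control with -0.097 points (-0.18 to 0.079), while that from the H3K9ac-bearing regions lay below 0. None of the 1374 wide steady regions carried H3K9me3, which allows a share of up to 0.218% in each condition at 3 counts (Wilson upper limit 0.279%), so no difference from them was detectable.

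Where H3K9me3 did occur, RNA pol II was called at several of the regions too. The same share was not taken for the other kinds of region, so it is not known to be particular to the narrow steady regions. Of the 12 regions with H3K9me3 in either condition 5 carried RNA pol II (41.7%, 95% interval 19.3 to 68.05%), against 187 of the other 14630 (1.28%). The 3 regions with H3K9me3 in both conditions all carried RNA pol II. At chr6:6298147-6298650 H3K9me3 covered 449 bp in control and 504 bp after butyrate. At chr6:5765662-5766104 it covered 443 and 235 bp, and RNA pol II covered 418 bp in control and 0 bp after butyrate. At chr21:60899217-60899442, with H3K27ac peaks of 200 and 210 bp, H3K9me3 covered all 226 bp in both conditions and RNA pol II 226 and 223 bp. With all regions that overlap H3K9me3 left out, an alternative chosen after seeing the data, each of the 6 differences in RNA pol II kept its sign and excluded 0. Those from the H3K9ac-bearing regions became smaller, from -1.42 to -0.88 points in control and from -2.44 to -1.93 points after butyrate. Those from the wide steady and the single-condition regions became slightly larger.

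The narrow steady regions lacked H3K9ac by choice, but many lay close to it. The median gap to the nearest H3K9ac peak of either condition was 27662.5 bp (quartiles 4377 and 107484 bp). An H3K9ac peak lay within 1 kb of 13.4% of the regions, within 10 kb of 34.2% and within 100 kb of 73.8%. The 5004 regions within 10 kb compare with 31.4% of all H3K27ac regions without H3K9ac. For the single-condition regions the share was 29.4% and for the wide steady regions 37.7%. The H3K9ac and H3K27ac lists that chose the regions also set these gaps and those of the next 3 paragraphs, so the spacing is a description and no test of it is given.

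The regions were also close to other H3K27ac. The median gap to the nearest other H3K27ac region was 395 bp (167 to 2293.2 bp), and it was within 250 bp for 39.9%, within 1 kb for 66.5% and within 12500 bp for 88.2% of the regions. The last are 12920 regions, against 85.3% of all H3K27ac regions. The share within 12500 bp was 82.7% for the single-condition regions, 87.3% for the wide steady regions and 87.4% for the H3K9ac-bearing regions. The remaining 1722 regions (11.8%) had no other H3K27ac region within 12500 bp. The most isolated were chr12:60768381-60768637, with H3K27ac peaks of 221 and 222 bp and 4497307 bp to the next H3K27ac region, and chr29:5034923-5035217, with 283 and 203 bp and 2165575 bp.

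The nearest neighbour of a narrow steady region was most often a single-condition region. Among the 12920 regions with a neighbour within 12500 bp, it was a single-condition region in 44.2% (24.5% control, 19.7% butyrate), another narrow steady region in 37.95%, an H3K9ac-bearing region in 9.17% and a wide steady region in 3.69%. For comparison, narrow steady regions made up 31.7% and single-condition regions 52.5% of all 46230 H3K27ac regions. A narrow steady nearest neighbour was about as frequent for the wide steady regions, 37.45%, and the H3K9ac-bearing regions, 38.3%, with 32.0% for the single-condition regions. The neighbour had H3K27ac in both conditions in 54.3% of cases for the narrow steady, 55.0% for the wide steady, 56.8% for the H3K9ac-bearing and 45.2% for the single-condition regions.

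Joined across gaps of up to 12500 bp, the H3K27ac regions formed 15938 runs, of which 8138 held a narrow steady region. Of the narrow steady regions 4983 (34.0%) were the only such region in their run, 6708 (45.8%) lay in runs with 2 to 4, and 2951 (20.15%) in the 423 runs with 5 or more. The richest run, chr3:15630812-15744723, held 62 regions over 113912 bp, of which 19 were narrow steady, 32 single-condition, 5 H3K9ac-bearing and 3 wide steady. The run chr23:28018063-28115120 held 54 regions with 19 narrow steady ones, and chr19:42471145-42515900 held 33 with 18, over 44756 bp. Each of these runs was thus a mixture of regions called in both conditions and in only 1.

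Along the genome the narrow steady regions followed acetylation as a whole. There were 5.84 per Mb, from 2.69 on chromosome 27 to 14.5 on chromosome 19, with a median of 5.66 over 29 chromosomes. As a share of all merged regions they varied little, from 28.4% on chromosome 27 to 34.6% on chromosome 18, with a median of 30.4%. Within that range the share tended to be higher on chromosomes dense in merged regions (Pearson r of 0.544 over the 29 chromosomes). Densities of narrow steady and of all merged regions had a Pearson r of 0.993 over the 29 chromosomes, a description of 2 counts of which the first is part of the second. The density varied more within chromosomes. Of 2523 windows of 1 Mb 740 (29.3%) held none, while the 181 windows with 20 or more held 5124 regions (35.0%). The fullest windows were chr3:14000001-15000000, with 54 of 130 merged regions, and chr16:52000001-53000000, with 54 of 144.

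**Figure D5:**
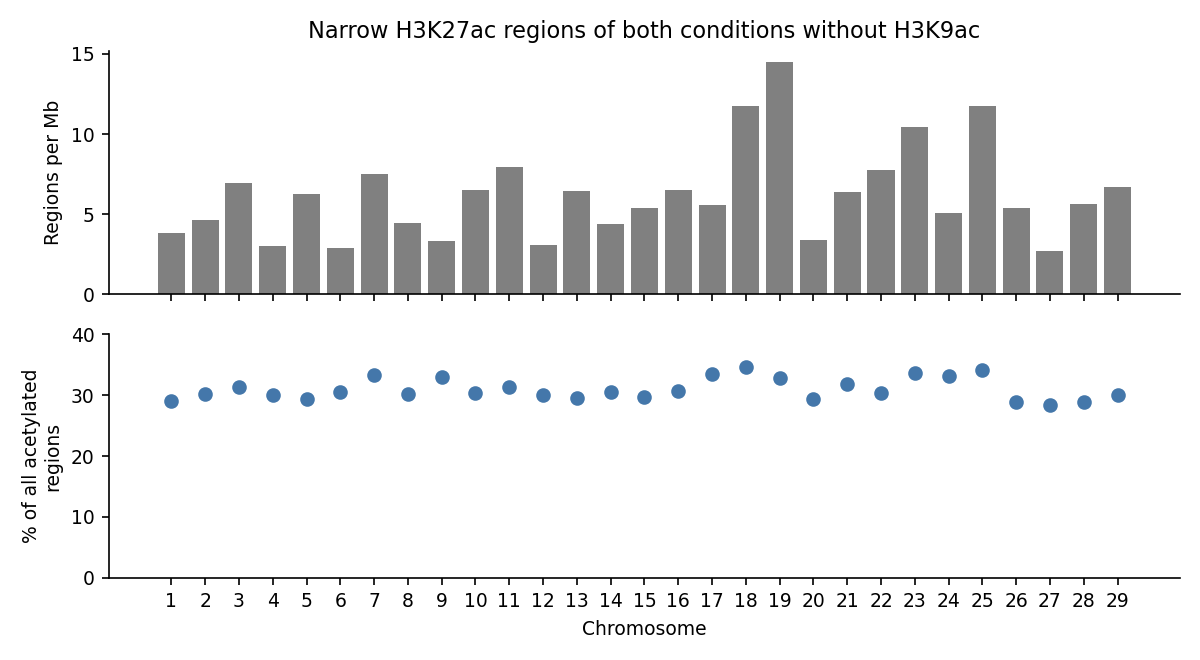
Top, narrow steady regions per Mb of chromosome (bars, length set by the peak with the highest position); bottom, their percent among all merged acetylated regions (points), for chromosomes 1 to 29. The density runs from 2.69 per Mb on chromosome 27 to 14.5 on chromosome 19, while the percent stays between 28.4 and 34.6.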

How the data were processed

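ChIP-seq peak lists of rumen tissue were analysed, 8 of the 9 labelled libraries, with no list of the input. Per the methods of the study, quality-filtered reads were aligned with BWA to UMD3.1.1, unique alignments with few mismatches were kept, and the authors called peaks per library with MACS2 against the input. The submitters' processing notes also name Trim Galore 0.4.1 and UMD3.1. Reads were of 75 nt, single-end per the series text and paired-end per the methods. The deposited lists hold 3 columns (chromosome, start, end), taken as 1-based with both ends included. They hold no score or read number. The paper's supplement has a mapping summary of its data sets, which was not used here, so depth was not compared or corrected.

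From these lists, regions were merged and compared in Python 3.11.15 (numpy 2.4.6, pandas 2.3.3, scipy 1.17.1, matplotlib 3.10.9). The regions and comparisons were chosen with earlier results of these data known. A mark was counted when it overlapped a region by at least 1 bp. Gaps are the bases between edges. Where a region held several H3K27ac peaks of a list, their widths were summed. Shares were given Wilson 95% intervals, and differences of shares Newcombe intervals, at 95% and at 99.71% for a family of 17 differences, 5 of them of spacing, which rest on the selecting lists and are given without intervals. No test between conditions was run, since each group had 1 library. The code was tested on simulated data. The highest peak position served as the length of a chromosome. Regions were named by a fixed rule: the 5 and 3 with the most bases under RNA pol II and H3K9me3 in both conditions, the 2 at each extreme of width ratio, overlap, isolation and width limit, and the fullest runs and windows. The fullest runs and windows beyond the first of each were chosen after their values were seen, as were the counts of shared edges and of 200 bp gaps. Alternatives were a stricter overlap of 50%, peaks of 200 bp left out, width limits of 600 and 1000 bp, no H3K9ac within 1 kb, merging across 500 bp, other distances, and regions with a single peak per list. Sequences and genes at the regions were not analysed here.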

Additional observations from a re-analysis of the deposited data

Results flagged for a closer look

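The X chromosome was outside the selection. By the same rule it held 207 such regions among 795 merged regions (26.0%, 95% Wilson interval 23.1 to 29.2%), or 1.39 per Mb, and 3 of them overlapped an RNA pol II peak. They were flagged only because no comparison used them. Their share and density were below those of every chromosome from 1 to 29 (28.4 to 34.6%, and 2.69 to 14.5 per Mb). The share with RNA pol II among all 795 regions was not taken.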

How the results depend on the processing

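Of 152 alternative values, 134 kept their direction and their side of 0 (for widths and numbers, moved little). No paired analysis was possible because a condition had 1 library per antibody. Of the differences in percentage points, those from the H3K9ac-bearing regions in RNA pol II (-1.76 to -0.88 in control, -2.57 to -1.92 after butyrate) and in H3K9me3 (-1.11 to -0.46 and -0.96 to -0.57), and those from the single-condition regions in RNA pol II (0.22 to 0.71 and 0.35 to 0.99), kept direction and side in all alternatives run. The width classes were not among these alternatives. Within them the RNA pol II difference from the single-condition regions had an interval that included 0 at 200 to 299 bp in both conditions. The same held at 300 to 399 bp after butyrate and at 600 to 799 bp in both. It excluded 0 at 300 to 399 bp in control and at 400 to 599 bp in both. Merging across gaps of up to 500 bp left 7628 narrow steady regions, with 13.2% at least 1.5-fold wider and 16.9% narrower after butyrate, and gave differences of -0.51 from the wide steady regions near H3K9ac, and 2.27 and 4.0 from the wide steady and H3K9ac-bearing regions near other H3K27ac. A limit of 600 bp gave 10.4% wider and 12.3% narrower, and an overlap of 50% gave 14.6% narrower. A limit of 1000 bp gave -0.83 for RNA pol II after butyrate and -0.28 near H3K27ac, both against the wide steady regions. Without peaks of 200 bp the differences from the wide steady regions were -0.33 for RNA pol II in control and -0.025 for H3K9me3 after butyrate, and that from the H3K9ac-bearing regions near H3K27ac was 1.33. Counting peaks within 1 kb gave, for H3K9me3, -0.016 in control and -0.16 after butyrate against the wide steady regions, and -0.085 in control against the single-condition regions. With no H3K9ac within 1 kb the difference from the H3K9ac-bearing regions near H3K27ac was -0.85. Values of spacing are a description. The cause was not tested for any of these. Since read depth was not used and the lists hold no signal height, weak peaks under the calling threshold cannot be told from absent ones.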
